A study of Homo sapiens with 16 samples.

Results

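Among the zinc finger genes named ZNF, ZSCAN or ZKSCAN followed by a number, 174 were well expressed in vehicle-treated HEK293 cells and form the set described here: 168 ZNF, 4 ZSCAN and 2 ZKSCAN genes. They were chosen by name and by signal. Each gene was represented by its probe set with the highest mean over 16 arrays, and it was kept when its mean log2 signal on the 4 vehicle arrays was at least 7. The array named 511 such genes. Of these, 417 passed a filter on dim signals, 243 of them with a vehicle mean under 7, and 94 did not pass. All 174 members passed that filter, among 12495 genes tested in the series. ZNF189, with a vehicle mean of 8.33, would otherwise have been a member, but it was left out by the rule. The counts of 0 members for DOC below hold without it. It stayed in the fit, and its values are given below where they bear on a count.

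The cells were HEK293, a human embryonic kidney line, transiently transfected for 24 h with 500 ng per well of an expression plasmid for MR, the mineralocorticoid receptor (encoded by NR3C2), so every group carried the plasmid. They then received for 4 h vehicle, 100 nM deoxycorticosterone acetate (DOC, a mineralocorticoid), 10 nM PMA (phorbol 12-myristate 13-acetate, an activator of protein kinase C) or DOC plus PMA. Each group had 4 arrays, numbered as biological replicates in the labels. RNA was measured on Affymetrix PrimeView arrays, and values are log2 signals after RMA, which corrects background, gives all arrays a common distribution and summarises probes. By its title the study asked how MR acts on inflammatory AP-1 signalling. Cells without the plasmid were not analysed here, so a DOC effect cannot be assigned to MR, and the labels used here do not name the promoter of the plasmid.

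Zinc fingers of the C2H2 kind are short loops held by a zinc ion, and tandem fingers read DNA sequence. Many ZNF proteins carry a KRAB box, which binds the corepressor TRIM28 and through it the histone methyltransferase SETDB1 and HP1 proteins, and many of these proteins silence transposable elements. ZSCAN and ZKSCAN proteins carry a SCAN domain, through which they form dimers. Other genes with a ZNF name work outside this scheme, for example in ribosome assembly or at kinetochores.

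On every array a signal of 7 lay between the 71.7th and 72.8th percentile of all probe sets. For the identity of the cells, 6 of 7 HEK293 markers lay above every array median, and PAX2 lay around it (4.37 to 5.23). Of the markers of other cells, 2 of 3 leukocyte, 3 of 3 endothelial, 3 of 3 fibroblast and 2 of 2 hepatocyte genes lay below every array median, and the leukocyte gene CD68 was at 4.12 to 4.99. The summed signal of the HEK293 markers was 63.3 to 64.0 on the DOC arrays and 66.7 to 67.8 on the DOC plus PMA arrays, with KRT8, KRT18 and NEFM higher, PAX2 lower by 0.35 ± 0.117 (limma, adjusted p = 0.0228) and the other 3 not past the threshold. The part of these markers in the results was not tested. EGR1, FOS and DUSP6 rose with PMA and PDK4, SGK1 and FKBP5 with DOC. PDK4, SGK1 and FKBP5 were also higher with PMA, so they do not separate the agents. SGK1 rose by 1.43 in PMA against vehicle and by 0.93 in DOC against vehicle. The receptor gene NR3C2 read 6.88 to 7.51 over all arrays and was 0.36 ± 0.105 (SE) lower in DOC plus PMA than in DOC (limma, adjusted p = 0.00993). The part of NR3C2 in the results was not tested either. In arrays of whole cultures, fewer cells and less RNA per cell cannot be told apart.

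A set of 3 arrays stood apart: replicate 2 of PMA, replicate 1 of DOC and replicate 2 of DOC plus PMA. Their deviations from the group means ran together across the members, with pairwise correlations of 0.474 to 0.605 over the 174 genes, where over all genes they were 0.425 to 0.554. These correlations are a description across genes that share arrays. On PMA replicate 2, 75.9% of members lay above their group mean, and on DOC replicate 1, 75.3%. DOC plus PMA replicate 2, at 67.8%, did not stand apart by this share, since replicate 4 of its group was at 73.6% and vehicle replicate 4 at 67.8%. The member median was 7.84 on PMA replicate 2 against 7.58 to 7.61 on the other PMA arrays. Counts are also given without these arrays.

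**Figure D1:**
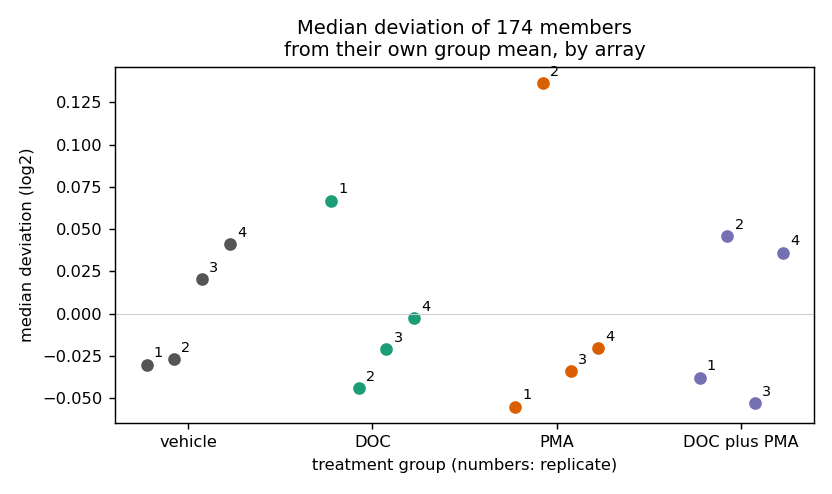
Median deviation of the 174 members from their own group mean (log2, vertical axis) on each of the 16 arrays, by treatment group; numbers are replicates. PMA replicate 2 is the highest at 0.14, DOC replicate 1 is at 0.067, and the lowest is PMA replicate 1 at -0.055.

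Because the vehicle arrays chose the members, every comparison with vehicle is given for them as a description. DOC plus PMA against DOC and DOC plus PMA against PMA use no vehicle array, and these are the tested comparisons. Each p-value for a gene came from limma, two-sided and adjusted by the Benjamini-Hochberg method over 12495 genes, and a gene passed at an adjusted p under 0.05. Changes are log2 differences ± SE with n = 4 arrays per group.

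With DOC present, PMA lowered 60 of the 174 members and raised 27, and 87 did not pass. Thus 34.5% were lower and 15.5% higher, where over all genes tested 26.9% were lower and 15.7% higher. Among 6748 other genes with a vehicle mean of at least 7, the shares were 29.5% and 17.6%. In either direction 87 of 174 members passed, where 47.1% of those other genes and 42.6% of all genes did. The median change of the members was -0.065, with quartiles of -0.31 and 0.11. It was -0.048 over all genes and -0.062 over the other genes of this signal. The median of the members was -0.024 after cyclic loess, -0.019 with a common median and -0.029 with array weights, where those of all genes were -0.016, 0.0014 and -0.039, and it was 0.015 for members with a vehicle mean of at least 8. The middle of the distribution in the deposited values was near that of other well expressed genes, and the lower quartile of the members lay lower than the -0.25 of those genes. Changes of at least 2-fold were few, with 3 members lower (1.72%) and 1 higher (0.575%), against 1.07% and 1.26% of the other genes.

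The balance of falls and rises depended on the scaling of the arrays. Of the members called, 69% were lower in the deposited values, 60.3% after cyclic loess (47 lower, 31 higher) and 57% with a common median (45 lower, 34 higher). Cyclic loess and the common median, taken over probe sets past the filter, were each applied on top of the deposited RMA values. Over all genes tested the share lower among calls was 63.2%, 56.2% and 53.6% under the same scalings. Without the 3 arrays that stood apart, 61 members were lower and 32 higher, and the share over all genes for that fit is not given here. Of the 174 members, 80 had DOC plus PMA arrays that did not overlap the DOC arrays, and 76 of these passed. That is 46% of members, beside 43.6% of the other genes of this signal and 38.9% of all genes without overlap.

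**Figure D2:**
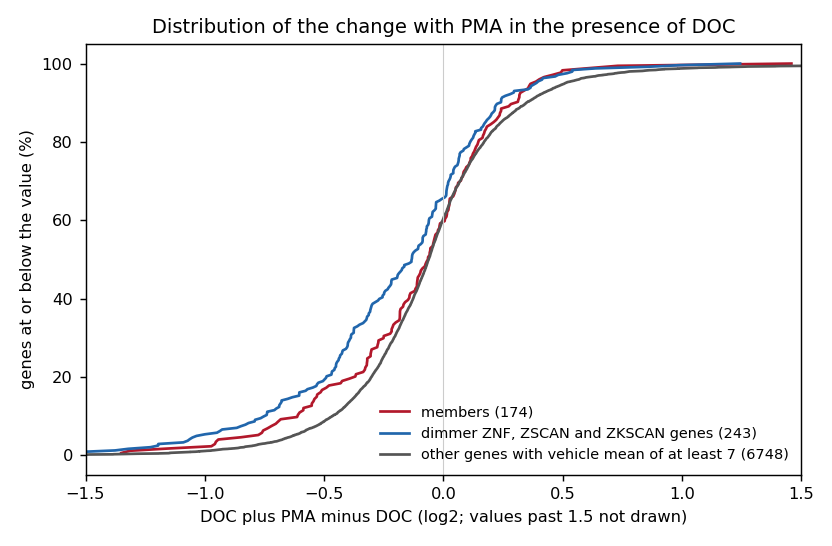
Cumulative share of genes (vertical axis, %) by the change in DOC plus PMA against DOC (log2, horizontal axis) for the 174 members, the 243 dimmer genes of the same names and 6748 other genes with a vehicle mean of at least 7. The curves of members and other genes cross 0 close together, the members' curve lies to the left among the falls, and the dimmer genes lie further left, with a median of -0.13.

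Of the 243 dimmer genes of the same names, 40.3% were lower and 10.3% higher, and 4.94% were lower by at least 2-fold. The largest fall among them was ZNF449 at -2.05, which ended at 4.21, below the array medians, where a fall can be understated. The difference between members and dimmer genes was not tested. For comparison, 3 of 15 ZBTB genes (20%) and 3 of 7 ZFP genes (42.9%) with a vehicle mean of at least 7 were lower, and 3 and 2 were higher.

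The 3 largest falls, of ZNF362, ZNF33A and ZNF397, were of more than 2-fold. ZNF362 read 8.65, 8.37, 8.39 and 8.27 on the DOC arrays and 7.25, 7.28, 6.88 and 6.89 on the DOC plus PMA arrays, and on the vehicle arrays it read 8.22 to 8.55. It was 2.55-fold lower, at -1.35 ± 0.121 (adjusted p = 7.43e-08). All 4 DOC plus PMA arrays lay below every DOC array, and the gene had 1 kept probe set.

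ZNF33A, a KRAB zinc finger, read 7.67, 7.39, 7.27 and 7.63 with DOC and 6.14, 6.39, 5.88 and 6.29 with DOC plus PMA. The fall was -1.31 ± 0.142 (adjusted p = 7.51e-07), with no overlap. Its 5 probe sets all read lower but by different amounts, from -1.31 to -0.10. Its dimmer relative ZNF33B, whose sequence is close to that of ZNF33A, read lower as well, at -1.53. How far probes of the 2 relatives share signal was not tested, so both values are uncertain.

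ZNF397, a SCAN zinc finger found at centromeres, read 7.43, 7.09, 7.10 and 7.33 with DOC and 5.92, 6.24, 6.13 and 6.04 with both agents. It fell by 1.15 ± 0.107 (adjusted p = 1.17e-07), and its other probe sets read -0.60 and -0.11. So the direction was shared by all 3 probe sets and the size was not.

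ZNF503 is a corepressor of the NET family, with few fingers and no KRAB box. It read 9.47, 9.37, 9.46 and 9.44 with DOC and 8.48, 8.48, 8.47 and 8.53 with DOC plus PMA, a fall of 0.94 ± 0.0760 (adjusted p = 1.82e-08). Of its 4 probe sets 3 read lower, and 1 read 0.15. The other NET family gene, ZNF703, was lower by 0.61 ± 0.135 (adjusted p = 0.00131), its arrays reading 8.33, 8.29, 8.46 and 8.39 with DOC and 7.45, 7.69, 7.99 and 7.90 with both. This pair was chosen after their values were seen, and both members of the family fell.

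Another 8 members completed the 12 largest falls, and in each the DOC plus PMA arrays lay below all DOC arrays. ZNF606, a KRAB zinc finger, read 7.24, 7.12, 7.18 and 7.09 with DOC and 6.25, 6.22, 6.09 and 6.23 with DOC plus PMA. It fell by 0.96 ± 0.0695 (adjusted p = 4.54e-09). ZNF235, also a KRAB protein, read 7.47, 6.99, 7.25 and 7.22 with DOC and 6.30, 6.28, 6.38 and 6.15 with both, a fall of 0.95 ± 0.0960. On the PMA arrays it read 5.92, 5.80, 6.08 and 6.08, lower still. The KRAB genes ZNF772 (-0.97 ± 0.105), ZNF441 (-0.85 ± 0.106), ZNF627 (-0.76 ± 0.0858) and ZNF181 (-0.74 ± 0.0712) and the zinc finger gene ZNF32 (-0.78 ± 0.0850) fell as well. So did ZNF204P, which is annotated as a pseudogene, at -0.76 ± 0.0753.

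Rises were fewer, and 1 stood out. ZNF697 read 7.42, 7.38, 7.38 and 7.40 with DOC and 8.77, 9.03, 8.77 and 8.85 with DOC plus PMA. It was 2.75-fold higher, at 1.46 ± 0.0762 (adjusted p = 5.89e-11), with no overlap between the groups. Its second probe set read 0.16, so the rise rests on 1 of 2 probe sets.

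ZNF316 rose by 0.73 ± 0.0830, with all 4 DOC arrays at or below 7.37 and the DOC plus PMA arrays at 7.90, 7.95, 8.12 and 7.95, and it had 1 probe set. ZNF8, a KRAB zinc finger, rose by 0.61 ± 0.0950, ZNF267, also a KRAB gene, by 0.50 ± 0.116 and ZNF800 by 0.49 ± 0.102. Of the 5 probe sets of ZNF800, 1 read -0.055. ZNF593, a ribosome assembly factor, rose by 0.46 ± 0.111 (adjusted p = 0.00259), from 8.21, 8.61, 8.78 and 8.60 to 9.03, 8.76, 9.10 and 9.14. Its groups overlapped, by the DOC array at 8.78 and the DOC plus PMA array at 8.76.

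The other members that passed lay between -0.72 and -0.16 or between 0.17 and 0.42. Examples, named after their values were seen, were ZNF292 at -0.72 ± 0.222 and ZNF217, an oncogene of breast cancer, at -0.59 ± 0.129 (adjusted p = 0.0012). ZNF292 read 7.67, 6.99, 6.61 and 7.66 with DOC and 6.50, 6.97, 6.24 and 6.34 with both, so a large change went with a wide spread and overlapping groups. The other kept probe sets of ZNF292, all dimmer, read -0.76, -0.92 and -0.96. ZNF281, a regulator of stem cell and mesenchymal genes, rose by 0.32 ± 0.0689 (adjusted p = 0.000964), from 9.28 to 9.36 with DOC to 9.57 to 9.69 with both.

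**Figure D3:**
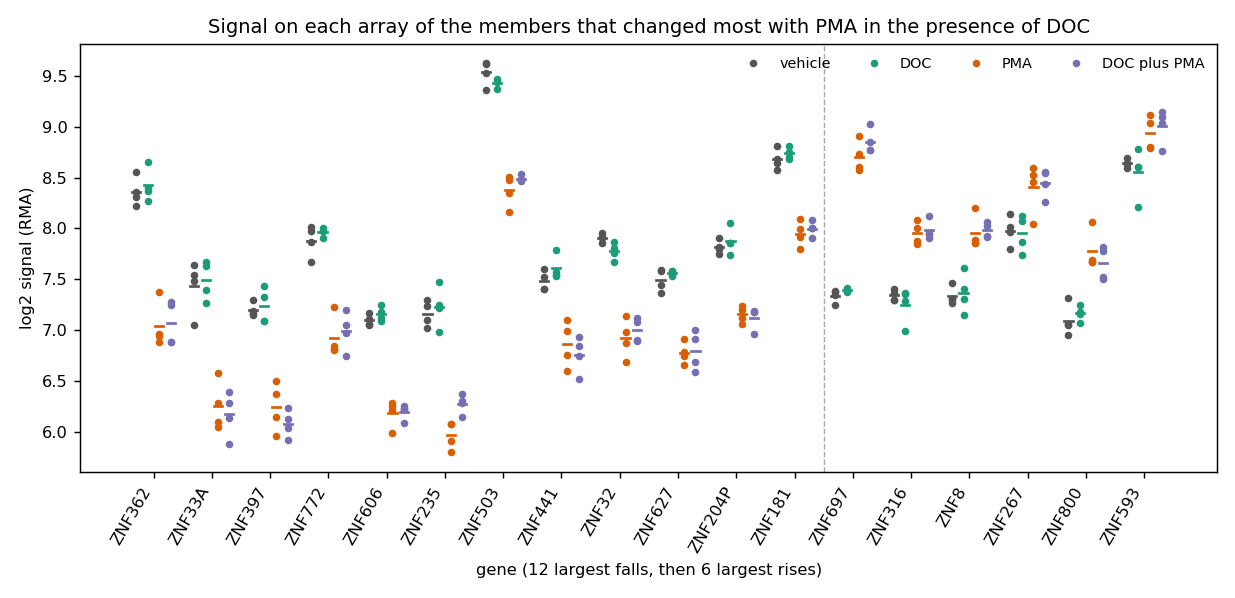
Log2 RMA signal (vertical axis) on each array of the 12 members with the largest falls and, right of the dashed line, the 6 with the largest rises in DOC plus PMA against DOC; points are arrays, short bars are means of 4. In the 12 falls the PMA and DOC plus PMA arrays lie below the vehicle and DOC arrays, and ZNF593 is the rise whose DOC and DOC plus PMA arrays overlap.

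The promoters of 6 of these genes are shown because they belong to the genes with the largest fall and the largest rise and to examples of each kind of match. Sequences are from RefSeq on GRCh38.p14, the 250 bases before the annotated start, 5′ to 3′ on the strand of the gene. Capitals mark matches to the AP-1 letters TGANTCA, the CRE letters TGACGTCA or the ETS letters CCGGAAGT, searched on both strands.
ZNF362 promoter, chr1:33256242-33256491, + strand: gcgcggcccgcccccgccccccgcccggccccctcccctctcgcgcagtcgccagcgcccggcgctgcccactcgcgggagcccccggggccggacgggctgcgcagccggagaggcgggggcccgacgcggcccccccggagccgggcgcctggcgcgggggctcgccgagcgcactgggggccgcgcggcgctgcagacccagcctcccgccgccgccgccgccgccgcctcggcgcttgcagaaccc
ZNF697 promoter, chr1:119648267-119648516, - strand: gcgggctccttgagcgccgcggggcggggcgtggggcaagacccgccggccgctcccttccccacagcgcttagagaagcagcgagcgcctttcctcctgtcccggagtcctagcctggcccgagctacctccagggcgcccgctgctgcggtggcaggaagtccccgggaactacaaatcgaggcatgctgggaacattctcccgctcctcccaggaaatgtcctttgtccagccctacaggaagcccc
ZNF235 promoter, chr19:44305026-44305275, - strand: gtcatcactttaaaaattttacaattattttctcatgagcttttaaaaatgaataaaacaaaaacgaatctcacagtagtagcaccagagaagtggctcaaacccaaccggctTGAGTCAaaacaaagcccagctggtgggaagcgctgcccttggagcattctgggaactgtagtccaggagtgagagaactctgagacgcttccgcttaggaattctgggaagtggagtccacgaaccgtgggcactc
ZNF593 promoter, chr1:26169658-26169907, + strand: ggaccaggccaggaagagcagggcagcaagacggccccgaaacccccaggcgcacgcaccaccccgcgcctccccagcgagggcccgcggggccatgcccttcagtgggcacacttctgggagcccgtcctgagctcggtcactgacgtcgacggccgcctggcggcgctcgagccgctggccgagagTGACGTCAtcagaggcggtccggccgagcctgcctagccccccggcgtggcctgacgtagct
ZNF606 promoter, chr19:58002821-58003070, - strand: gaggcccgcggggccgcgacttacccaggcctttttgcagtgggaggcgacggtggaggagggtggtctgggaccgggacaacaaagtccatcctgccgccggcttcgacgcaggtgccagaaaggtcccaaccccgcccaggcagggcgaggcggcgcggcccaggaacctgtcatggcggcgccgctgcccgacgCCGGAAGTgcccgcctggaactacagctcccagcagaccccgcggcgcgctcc
ZNF316 promoter, chr7:6637068-6637317, + strand: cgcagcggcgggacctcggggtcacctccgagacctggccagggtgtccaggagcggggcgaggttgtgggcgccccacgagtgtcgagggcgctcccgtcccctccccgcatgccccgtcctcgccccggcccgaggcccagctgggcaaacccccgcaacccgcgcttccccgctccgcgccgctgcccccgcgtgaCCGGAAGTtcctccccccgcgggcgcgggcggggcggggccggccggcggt
ZNF362 and ZNF697, which moved furthest in either direction, held no match in these windows. The ZNF235 match was TGANTCA, with its first base at position -137 from the start. ZNF593 held TGACGTCA at -62, ZNF606 held CCGGAAGT at -53 and ZNF316 held it at -51. ZNF593 and ZNF316 each held 1 more CCGGAAGT just past the start, outside the window shown. A match describes letters and does not show binding.

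Promoters were found for 153 of 174 members. From 250 bases before to 50 after the start, CCGGAAGT was present in 22.9% of the members, in 10.7% of the other genes with a vehicle mean of at least 7 and in 4.44% of all promoters in the table. Of 204 dimmer genes of the same names, 16.7% held it, so a share above that of the other genes was not particular to the members. In members, other genes and all promoters, TGANTCA was present in 7.84%, 3.7% and 7.76%, and TGACGTCA in 5.23%, 3.92% and 1.98%. The letters GCGTGGGCG of the EGR family were found in 0.654%, 1.38% and 0.784%, and a steroid receptor element, searched as a palindrome with a spacer, in 0.654%, 0.138% and 0.388%. Among members that were lower, higher or neither, CCGGAAGT was in 15.4%, 30.4% and 25.6%, and TGANTCA in 11.5%, 8.7% and 5.13%. TGACGTCA was in 1.92%, 13% and 5.13%. These shares rest on 52, 23 and 78 promoters and were not tested. The median GC content was 63% in members and 65.7% in the other genes.

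Of 15 members with a SCAN domain by symbol or synonym, 4 were lower, 3 were higher and 8 did not pass. These shares lie near the 26.9% lower and 15.7% higher of all genes tested, so nothing particular to SCAN genes is read from them. ZSCAN18 read 8.77, 8.94, 8.87 and 8.86 with DOC and 8.20, 8.32, 8.40 and 8.33 with both, a fall of 0.54 ± 0.0697 (adjusted p = 5.31e-06). ZNF397 was described above, and ZKSCAN1 (-0.28 ± 0.0703) and ZNF174 (-0.25 ± 0.0689) fell less. The rises were ZNF263 at 0.36 ± 0.0687, ZNF394 at 0.32 ± 0.0843 and ZNF274, which recruits SETDB1 to the ends of zinc finger genes, at 0.27 ± 0.0707. The remaining ZSCAN and ZKSCAN members, ZKSCAN2, ZSCAN9, ZSCAN16 and ZSCAN25, ran from -0.11 to 0.13 and did not pass. With all probe sets of a gene averaged, also those not past the filter, ZKSCAN2 was instead higher by 0.29 (limma, adjusted p = 0.00026). In that setting ZKSCAN1, at -0.14, no longer passed. The only kept probe set of ZKSCAN2 read -0.07, so its rise came from probe sets that the filter had removed.

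The brightest members were ZNF711 with a vehicle mean of 12.04, ZNF146 with 11.17 and ZNF207 with 11.06. ZNF207, a spindle and kinetochore protein, read 10.93 to 11.08 with DOC and 11.34 to 11.49 with both, and rose by 0.40 ± 0.0617 (adjusted p = 4e-05). ZNF711, a partner of the histone demethylase PHF8, was at 0.05 ± 0.0952 and ZNF146, a protein made almost only of fingers, at 0.11 ± 0.0737. Neither of these passed. ZSCAN25 lay at the threshold itself, ZNF174 and ZNF830 just inside it with vehicle means of 7.006 and 7.007, and ZNF230, ZNF615 and ZNF300 lay just outside at 6.969, 6.968 and 6.968.

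Genes with known roles outside KRAB repression were also followed, on lists chosen after their values were seen. For ribosome assembly and quality control, ZNF593 and ZNF622, a factor of the large ribosomal subunit, rose (ZNF622 by 0.32 ± 0.0705, adjusted p = 0.00132), and ZNF598, a ligase that marks collided ribosomes, did not pass (0.11 ± 0.0745, adjusted p = 0.241). Of 2 repressors of transposable elements, ZNF93 was 0.22 ± 0.0789 lower (adjusted p = 0.0337) and ZNF91 at -0.10 ± 0.0901 did not pass. ZNF410, which activates the remodeller gene CHD4, was at 0.17 (adjusted p = 0.0623), and CHD4 itself at 0.05 ± 0.0847. In these small lists the genes with a shared role thus did not all pass.

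The corepressor machinery that KRAB proteins use was followed over 23 tested genes of a list. Of the 23, 4 were higher, 6 lower and 13 did not pass, with a median of -0.02. The counts lie near the shares of all genes tested (15.7% higher, 26.9% lower, median -0.048). TRIM28, the scaffold, was at -0.02 ± 0.0671, and the histone methyltransferase SETDB1 fell by 0.35 ± 0.0713 (adjusted p = 0.00068). The HP1 genes CBX5 (-0.52 ± 0.139), CBX1 (-0.37 ± 0.0706) and CBX3 (-0.23 ± 0.0762) fell, as did the remodeller SMARCAD1 (-0.50 ± 0.109). The SETDB1 partner ATF7IP (0.46 ± 0.0660), MORC3 (0.43 ± 0.0740), the HUSH subunit TASOR (0.35 ± 0.0695) and the DNA methyltransferase DNMT3A (0.29 ± 0.0781) rose. SUMO2 was also lower, at -0.15 ± 0.0597 (adjusted p = 0.0466).

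By position in RefSeq, 72 of the 153 members with a promoter lay on chromosome 19, where zinc finger genes form large clusters. There 41.7% were lower and 8.33% higher, against 27.2% and 21% of the 81 members on other chromosomes. Other genes with a vehicle mean of at least 7 were lower in 24.3% and higher in 14.2% on chromosome 19, and in 30.1% and 17.3% elsewhere. In the dimmer zinc finger genes the order was the other way, with 35% lower on chromosome 19 and 45.2% lower elsewhere. These shares were not tested. Of 29 pairs of members next to each other, 19 had changes of the same sign (65.5%, against 51.4% of all member pairs), and in 7 both passed. In 6 of those both were lower, namely ZNF302 with ZNF181, ZNF607 with ZNF573, ZNF576 with ZNF428, ZNF235 with ZNF112, ZNF766 with ZNF480 and ZSCAN18 with ZNF329, and in 1, ZNF329 with ZNF274, they were opposite. Among all members 50% passed, so pairs in which both passed also arise among members that are not neighbours. Their share was not computed, and nothing particular to neighbours is read from the 7.

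Probe design limits some of these genes. Of 174 members, 122 had several kept probe sets, and in 84 of these all shared the sign of the change. Among the largest falls and rises, ZNF503 and ZNF800 had a probe set of the opposite sign. In 52 members the name of the chosen probe set ended in _x_at or _s_at, taken here as the mark of shared probes. Names ending in _a_at were not counted. Among those 52, 18 were lower and 6 were higher. Of all members 34.5% were lower and 15.5% higher, and of all genes tested 26.9% and 15.7%. Nothing particular to shared probes is read from these counts.

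PMA without DOC gave a like picture, described here without reading a test because vehicle arrays chose the members. Of 174 members 54 were lower and 36 higher, where over all genes 29.3% were lower and 17.7% higher, or 47% in either direction. Across members the change without DOC and the change with DOC, which share no array, had a Pearson r of 0.953 (all genes 0.959). Of the 87 members called with DOC, 86 had the same sign without it (98.9%) and 74 were called in both (85.1%). Over all genes the shares were 99.4% and 87.3%, and over the other genes with a vehicle mean of at least 7 they were 99.8% and 88.4%. Of the calls 60% were lower in the deposited values, 51.7% after cyclic loess (46 lower, 43 higher) and 48.9% with a common median (44 and 46). Over all genes tested the share lower among calls was 62.4%, 53.5% and 47.8% under the same scalings. Without the 3 arrays that stood apart 69 members were lower and 30 higher, a split for which the share over all genes is not given here. ZNF362 was at -1.32 ± 0.121 and ZNF697 at 1.37 ± 0.0762 without DOC. When members were instead chosen by a mean of at least 7 on the DOC arrays, which do not enter this comparison, 53 of 174 were lower and 37 higher. That is 30.5% and 21.3%, near the 32.6% and 18.6% of 6752 other genes, and the median was -0.0057 against -0.074. Of those 174 genes, 171 were also members by the vehicle arrays.

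**Figure D4:**
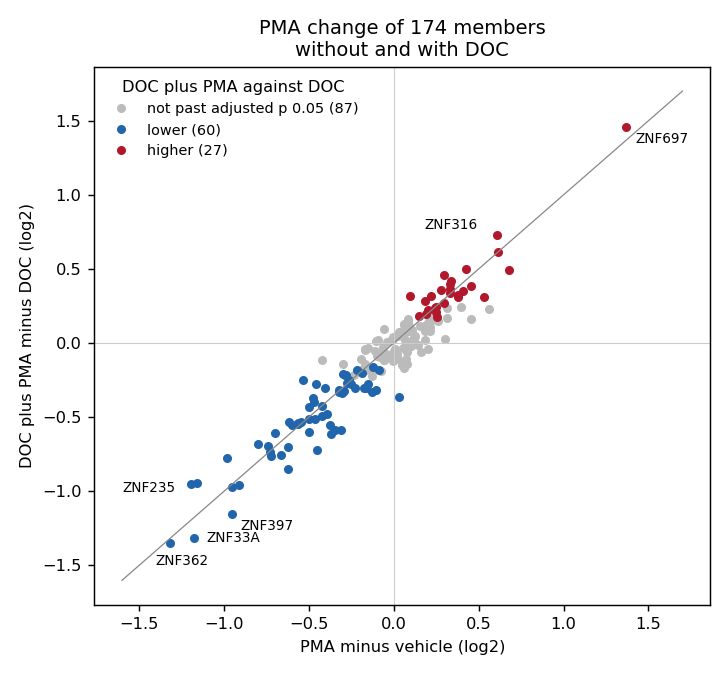
Change with PMA in the absence of DOC (horizontal axis, log2) and in its presence (vertical axis, log2) for the 174 members, coloured by the call in DOC plus PMA against DOC; the line marks equality. The points lie along the line, from ZNF362 at the lower left to ZNF697 at the upper right.

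DOC in the presence of PMA changed no member past the threshold. For DOC plus PMA against PMA, 0 of 174 passed in limma (0 lower, 0 higher; 5 at an unadjusted p under 0.05), where 0.384% of all genes did. The changes ran from -0.29 ± 0.156 for ZNF234 to 0.31 ± 0.0960 for ZNF235 (adjusted p = 0.442). For 170 of 174 members the 95% interval of the change lay within ±0.5. The replicate numbers were taken to pair the PMA and DOC plus PMA arrays from the data alone, and this pairing is uncertain. With the replicate number as a block within these 2 groups, a fit chosen after seeing the data, again 0 members passed. In that limma fit 17 were at an unadjusted p under 0.05, and the smallest adjusted p was 0.207. ZNF189, outside the set by the rule alone, rose with DOC in the presence of PMA by 0.47 ± 0.0894 (limma, adjusted p = 0.0201). It read 8.59, 8.62, 8.36 and 8.38 with PMA and 9.05, 9.02, 8.80 and 8.95 with both. The arrays of ZNF189 did not overlap between these groups.

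ZNF235 was the member with the smallest p here. With PMA it read 5.92, 5.80, 6.08 and 6.08, and with DOC plus PMA 6.30, 6.28, 6.38 and 6.15, so the groups did not overlap. The difference did not pass the threshold over all genes. ZNF235 was also among the 12 largest falls with PMA in the presence of DOC.

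DOC without PMA is a description too, and it changed 0 of 174 members past the threshold (1 at an unadjusted p under 0.05), where 0.12% of all genes passed. The changes ran from -0.14 for ZNF429 to 0.27 for ZNF175, with an adjusted p of 0.999 for the latter. For 173 of 174 members the 95% interval lay within ±0.5. ZNF189 was at 0.47 ± 0.0894 (adjusted p = 0.046). ZNF175 read 7.80, 7.34, 7.61 and 7.37 with DOC and 6.99, 7.53, 7.30 and 7.21 with vehicle, groups that overlapped. In DOC plus PMA against DOC it was 0.32 ± 0.118 lower (adjusted p = 0.0364), a call lost in 10 of the other settings. Among these were the fits without DOC replicate 1 (-0.23), DOC replicate 3 (-0.29), DOC plus PMA replicate 2 (-0.30), 3 (-0.28) or 4 (-0.34). The other kept probe sets of ZNF175, all dimmer, read -0.47, -0.49 and -0.33 in that comparison. The difference of the DOC effect with and without PMA passed for 0 members (2 at an unadjusted p under 0.05), where 0.088% of all genes passed, and the smallest p was that of ZNF174 at 0.28 ± 0.0975.

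Over the members, the DOC change with PMA had a standard deviation of 0.0872, and the PMA change with DOC one of 0.38. Over all genes tested these were 0.117 and 0.463, and over the other genes with a vehicle mean of at least 7 they were 0.0904 and 0.404, so the wider spread with PMA was not particular to the members. The DOC change with PMA and without PMA had a Pearson r of -0.114 across the 174 genes, 0.173 across all genes and 0.114 across the other genes of this signal. These are weak correlations across genes, given as a description.

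**Figure D5:**
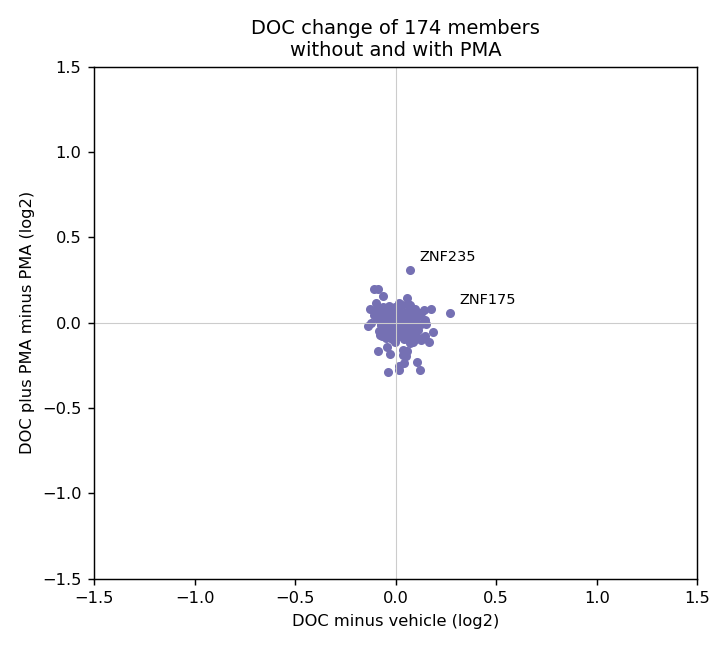
Change with DOC in the absence of PMA (horizontal axis, log2) and in its presence (vertical axis, log2) for the 174 members, on axes far wider than the points. All points lie within 0.31 of 0 on both axes, with ZNF235 and ZNF175 named as the most extreme.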

How the data were processed

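The values were the log2 signals that the authors deposited, made by RMA. Per the submitters' processing notes this was done in Affymetrix Expression Console, with versions not given in the sources used here. The table held 16 arrays and 49293 probe sets, with 0 columns outside the 16. Gene names came from the platform annotation, which paired 44988 with 1 gene and 1832 with several. Names updated by gene identifier, available for 44961, were used only in an alternative setting. Probe sets at or above the 40th percentile of the array on at least 4 arrays were kept (30613), and each gene was represented by the one with the highest mean, giving 12495 genes. Group means were fitted to all 16 arrays with lmFit and eBayes in limma 3.58.1 under R 4.3.3, with 12 residual degrees of freedom. Calls needed a Benjamini-Hochberg adjusted p under 0.05, with no fold minimum, and the fit was tested on simulated data.

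There are no read depths for arrays; their number limits the precision, and the median 95% half-width of a member's difference was 0.174. Named genes were the 12 largest falls and 6 largest rises, every ZSCAN and ZKSCAN member, the 3 brightest members, the 3 just inside and just outside the threshold, and the smallest p of each DOC contrast. The members and lists were chosen with earlier results of these data known, and 3 lists after their values were seen. The replicate numbers of PMA and DOC plus PMA arrays were taken as pairs from the data alone, since all 4 same-number correlations of deviations were over 0.1 (0.157 to 0.549). The value of 0.549 was that of the replicate 2 arrays, both among those that stood apart. PMA replicate 4 ran closer to DOC plus PMA replicate 3 (0.335) than to its own number (0.157), so the pairing is uncertain. The labels do not say what a number shares. The genome build is not given in the sources used here, and promoters come from RefSeq GRCh38.p14. Protein sequences were not used here.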

Additional observations from a re-analysis of the deposited data

Results flagged for a closer look

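Of 136 groups of 4 arrays examined for a single array standing far from the other 3, 12 had one, where chance gives about 1 in 20. On PMA replicate 2, ZNF362 read 7.38 (others 6.88 to 6.96), ZNF772 read 7.23 (6.81 to 6.85), ZNF8 read 8.20 (7.85 to 7.89), ZNF800 read 8.06 (7.67 to 7.70) and ZNF830 read 6.42 (7.09 to 7.20). The median of all members was 7.84 on that array (7.58 to 7.61 on the others). On DOC replicate 1, ZNF441 read 7.79 (7.53 to 7.57) and ZNF615 read 7.48 (6.90 to 6.99). ZNF615 read 6.83 on vehicle replicate 2 (7.002 to 7.026). ZNF204P read 6.96 on DOC plus PMA replicate 3 (7.175 to 7.185), ZNF146 read 11.28 on vehicle replicate 4 (11.13 to 11.14) and ZNF207 read 11.54 on PMA replicate 1 (11.33 to 11.35).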

How the results depend on the processing

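For both DOC comparisons and the interaction no member passed in any setting run, except ZNF57, a dimmer gene (0.39, adjusted p = 0.0136), which the lower vehicle threshold below adds. No setting turned the direction of the 12 largest falls or the 6 largest rises. With all probe sets of each gene averaged, also those not past the filter, 74 genes were members. Of these, 21 were lower and 12 higher in DOC plus PMA against DOC, and 23 lower and 14 higher in PMA against vehicle. The count of members changes by construction. With a vehicle mean of at least 6, 298 genes were members, 111 lower and 44 higher in DOC plus PMA against DOC, 104 and 57 in PMA against vehicle, and 1 higher in DOC plus PMA against PMA. With a mean of at least 8, 63 genes gave 21 and 15, and 20 and 21. Both thresholds leave the fit as it was. In it 26.9% of all genes were lower and 15.7% higher in DOC plus PMA against DOC, and 29.3% and 17.7% in PMA against vehicle. Leaving out 1 array at a time, 50 to 63 members were lower and 21 to 31 higher in DOC plus PMA against DOC, and 47 to 67 and 27 to 37 in PMA against vehicle. With the replicate block over all 16 arrays 58 were lower and 29 higher, and with the replicate block within the DOC and DOC plus PMA arrays, chosen after seeing the data, 56 and 24; it changed no count of calls by over 1.5 times. For averaged probe sets, arrays left out and replicate blocks, shares over all genes are not given here. Nothing particular to the members is read from those counts. Of 1023 values of 33 named genes, 1004 kept their direction and side of the threshold, 14 were no longer past it and 5 reversed, all of changes that had not passed. With averaged probe sets ZKSCAN2 read 0.29 (adjusted p = 0.00026), ZSCAN16 0.10 and ZNF230 -0.22, ZNF711 read -0.0057 without DOC replicate 3 (range over arrays left out -0.0057 to 0.15) and ZNF615 0.043 without DOC replicate 1 (-0.17 to 0.043); the cause was not tested.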
